A study of Mus musculus with 6 samples.

Results

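The mouse genome holds many processed pseudogenes of ribosomal proteins, and the deposited expression table listed 73 of them among 22081 genes, 1709 of which were pseudogenes of any kind. A row was taken when its biotype was a pseudogene and its symbol was that of a ribosomal protein of the large (Rpl) or small (Rps) subunit followed by "-ps". All 73 were found by symbol. Of these, 38 carried an Rpl and 35 an Rps symbol, 70 were annotated as processed pseudogenes and 3 as transcribed processed pseudogenes, and they lay on 18 chromosomes. Their symbols named 41 parent genes. GENCODE M21 holds 294 pseudogenes with such symbols. The rule used no expression value.

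Processed pseudogenes arise when an mRNA is reverse transcribed and inserted elsewhere in the genome, so a fresh copy carries the parent's exons without introns and usually without the parent's promoter. The parents encode the proteins of the cytosolic ribosome and are among the most strongly and broadly expressed genes, which is the usual account of why their copies are numerous. Copies collect mutations with age, and a young copy can be hard to tell from its parent by a short read.

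To ask how loss of Taf4a changes the transcripts of muscle stem cells (MuSCs, the Pax7-expressing stem cells of skeletal muscle), RNA-seq was performed on cells used directly after sorting from adult C57BL/6 mice. There were 3 control libraries, titled WT, and 3 libraries titled Taf4a-KO, here called Taf4asKO. In Taf4asKO mice both Taf4a alleles were floxed, and tamoxifen activated a Cre recombinase expressed from Pax7. In the study's description of its mice, controls carried the same floxed alleles and may or may not carry the Cre allele. The titles call them WT. Tamoxifen treatment of each control library was not given in the labels. Cre acts only where Pax7 was active when tamoxifen was given, and 90000 cells per library were sorted by surface markers or a Pax7 reporter. Taf4 (formerly Taf4a), a subunit of the general transcription factor TFIID, stood at 613, 534 and 478 in control replicates and 631, 565 and 574 in Taf4asKO replicates, in normalized counts (reads per gene divided by a size factor per library). This gene total was not called between the groups (log2 fold change 0.13 ± 0.12 SE, adjusted p = 0.524, limma). It sums all exons, most of which lie outside the floxed segment, and does not check the labels. In separate assays, the study reports almost no Taf4a transcript by RT-qPCR and almost no protein by western blot in its Taf4asKO MuSCs.

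Total normalized counts lay between 12338676 and 14551732 in control and between 13036518 and 13523386 in Taf4asKO. MuSC markers were present, at summed levels of 50247 to 52930 in control and 51352 to 57909 in Taf4asKO, with 3 of 10 lower and 2 higher past the threshold given below. Markers of other cells also differed. Of 4 Schwann cell markers 3 were higher, with sums of 842 to 2255 in control and 2757 to 3300 in Taf4asKO. Endothelial sums were 186 to 451 and 466 to 740, with 0 of 4 past the threshold and 3 of 4 higher at an unadjusted p under 0.05. Blood cell sums over the 3 of 6 listed markers in the table were 435 to 548 and 680 to 921, with 1 marker above 0 and 2 below, a median of -0.03 and 0 past the threshold (1 lower and 1 higher at an unadjusted p under 0.05 in limma). Fibro-adipogenic sums were 53301 to 79195 and 33227 to 55257, and the lower sum goes against most of the list: 1 of these 6 markers, the collagen gene Col3a1, was lower past the threshold, while 5 were above 0, 2 of them at an unadjusted p under 0.05, and the median log2 fold change was 0.83. Myofibre sums were 1170 to 3618 and 2045 to 2602. No listed marker in the table was at 0 in all libraries. The part of such cells in the pseudogene values was not tested, and in bulk RNA fewer cells of a type and less RNA per cell cannot be told apart.

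The copies differed widely in how closely they resembled their parents. Across the 72 members that aligned to a ribosomal protein coding sequence, identity ran from 72.3% to 100%, with a median of 98.2%, and 7 members were identical to the parent over the aligned part. The alignment covered at least 95% of the parent's coding sequence in 71 members. An open reading frame of at least 95% of the parent's protein length was kept by 25 members. The member that aligned to no listed coding sequence was Rpl17-ps11.

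The sequences below are 150-base stretches of 4 copies that differ in divergence, read 5' to 3' on the strand of the coding sequence. Capitals mark bases that differ from the parent, and coordinates are mm10 positions of the stretch. They were chosen because the copies run from identical to clearly diverged and hold both called and uncalled members. Rps16-ps2 (chr5:129128368-129128517, minus strand) has no difference from the first 150 coding bases of Rps16.
Rps16-ps2: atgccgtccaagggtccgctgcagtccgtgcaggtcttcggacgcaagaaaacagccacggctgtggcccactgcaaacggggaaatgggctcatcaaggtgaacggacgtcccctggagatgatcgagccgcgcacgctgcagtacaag
Rps24-ps3: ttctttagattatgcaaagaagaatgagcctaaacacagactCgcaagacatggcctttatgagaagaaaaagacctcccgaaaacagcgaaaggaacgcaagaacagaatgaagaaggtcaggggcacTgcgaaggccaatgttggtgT
Rpl5-ps2: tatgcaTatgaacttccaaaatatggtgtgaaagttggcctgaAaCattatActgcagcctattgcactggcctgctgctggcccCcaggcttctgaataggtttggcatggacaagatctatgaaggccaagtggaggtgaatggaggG
Rpl7a-ps9: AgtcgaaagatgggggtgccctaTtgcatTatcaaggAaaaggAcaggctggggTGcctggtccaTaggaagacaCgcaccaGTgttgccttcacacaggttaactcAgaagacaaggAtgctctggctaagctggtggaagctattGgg
The stretches of Rps24-ps3 (chrX:79195277-79195426, plus strand), Rpl5-ps2 (chr2:154704040-154704189, plus strand) and Rpl7a-ps9 (chr7:81446415-81446564, plus strand) hold 3, 6 and 14 differences. Each stretch is the 150 bases with the most differences in the longest part aligned without gaps. Over the whole alignment, identity to the parent was 99.0% for Rps24-ps3, 98.8% for Rpl5-ps2 and 88.4% for Rpl7a-ps9. The symbol Rpl18-ps1 goes against its sequence, which did not align to Rpl18, so it is described below without a parent.

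As a measure of how many reads could be unique, every 75-base window (75 bases being the length of a read) of a member was looked up in all other annotated transcripts. The median member had 69.7% of its windows in no other transcript, and 7 members had none. Rps16-ps2, Rps6-ps4 and Rpl10a-ps1 were among these 7, yet received counts, although reads that mapped to several places had been removed before counting. Sequence that flanks the annotated copy was not part of this measure.

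The 73 members were low. Their mean over the 6 libraries ran from 1.67 to 165 normalized counts with a median of 5.83, and 14 members were at 0 in at least 1 library. Per kilobase of exon, the median member stood at 11.4 and the median of the 84 cytosolic ribosomal protein genes in the table at 945 normalized counts. The median member reached 1.6% of its parent's level per kilobase, whereas Rps16-ps2 reached 33.9%, Rps24-ps3 21.8% and Rpl3-ps1 11.6%. The highest shares were those of Rpl23a-ps14 (61.7%) and Rpl23a-ps2 (39.4%), whose parent Rpl23a was itself low, at 27, 45 and 22 in control and 16, 15 and 11 in Taf4asKO. Exon length joined the exons of all annotated transcripts of a gene, and a longer length gives a lower level per kilobase. In counts not divided by length, Rps24-ps3 was 0.972% to 1.68% of Rps24 and Rpl3-ps1 2.68% to 6.42% of Rpl3 over the 6 libraries. The 9 members with a mean of at least 20 held 64.0% to 67.3% of all member counts in control and 55.3% to 60.9% in Taf4asKO.

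The summed pseudogene level was lower in Taf4asKO, and by about the same factor as the summed ribosomal protein genes. Over all 73 members it was 1207, 1415 and 1401 in control and 739, 712 and 788 in Taf4asKO, so that the groups did not overlap. The means were 1341 ± 116 and 746.3 ± 38.5 (SD, n = 3), a ratio of 0.557. The 84 cytosolic ribosomal protein genes in the table summed to 222132, 271403 and 223262 in control and 140185, 132196 and 125371 in Taf4asKO, a ratio of 0.555. The pseudogene sum, divided by this separate sum of ribosomal protein genes, was 0.543%, 0.521% and 0.628% in control and 0.527%, 0.539% and 0.629% in Taf4asKO. These ratios overlapped between the groups, with means of 0.564% ± 0.056 and 0.565% ± 0.0555 (SD, n = 3). The 41 genes named by a member's symbol, taken alone after the data were seen, summed to 107726, 132438 and 108117 in control and 68911, 65293 and 61147 in Taf4asKO, a ratio of 0.561.

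The equal ratio held for the sum and not for its weaker part. Without the 9 members with a mean of at least 20, the remaining 64 summed to 435, 491 and 458 in control and 322, 318 and 308 in Taf4asKO, a ratio of 0.685. Those 9 alone summed to 772, 924 and 943 against 417, 394 and 480, a ratio of 0.489. This split by level was added after the data were seen. Other pseudogenes with a sequence close to a ribosomal protein coding sequence but another symbol (316 rows) had a ratio of 0.705, and the 1320 remaining pseudogenes a ratio of 0.915. No test was made of the differences between these ratios.

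**Figure D1:**
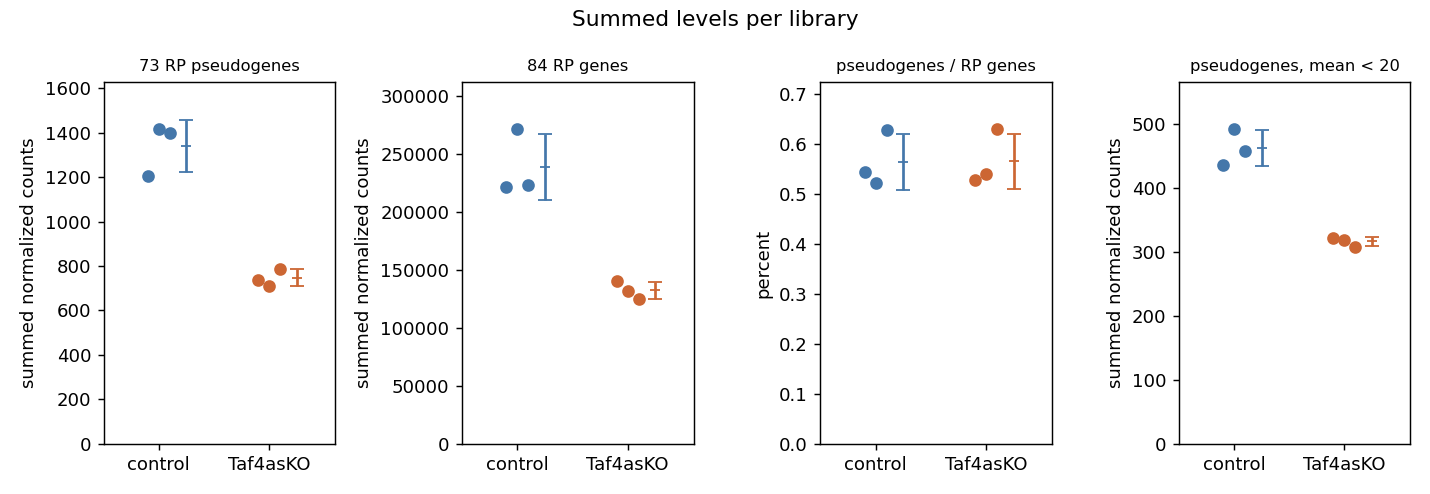
Summed normalized counts per library (points) with mean and SD (bars), for the 73 ribosomal protein (RP) pseudogenes, the 84 RP genes, the pseudogene sum in percent of the RP gene sum, and the pseudogenes with a mean under 20. Pseudogenes and RP genes were both lower in all 3 Taf4asKO libraries, and the percent overlapped between groups, with means of 0.564 and 0.565.

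A gene was called when the adjusted p of limma was under 0.05 and the fold change at least 1.3, tested on log2(normalized count + 1) in genes with a mean of at least 5. Of the 73 members 43 could be tested, and 6 were called lower and 0 higher. The count was 3 without Taf4asKO replicate 1 and 3 without Taf4asKO replicate 3. Among all 18562 genes tested, 6.71% were called lower and 5.93% higher. At an unadjusted p under 0.05, 14 members were lower and 0 higher, against 2630 lower and 2714 higher among all genes tested. The median log2 fold change of the tested members was -0.80, against 0.00 over all genes, and 35 were below 0. With no filter on the mean, which brings in the lowest members, the median was -0.53. Over all 73 members, whether tested or not, the group mean was lower in Taf4asKO in 56, higher in 13 and equal in 4, against 11100 lower, 10637 higher and 344 equal among all 22081 genes. All 3 Taf4asKO libraries lay below all 3 controls in 16 of the 43 and above in 0, against 16.4% and 16.6% of all tested genes.

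The members were also split by level. Of the 9 with a mean of at least 20, 5 were called lower, where 8.1% of all tested genes at that level were. Of the 34 with a mean of 5 to 20, 1 was called lower, where 2.44% of genes with a mean under 20 were, and the median log2 fold change of these 34 was -0.64. The lack of a call in this range was not evidence that a member was unchanged.

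Most cytosolic ribosomal protein genes, whether or not a member was named after them, were lower as well. Of 83 tested cytosolic ribosomal protein genes 71 were called lower and 0 higher (1 was higher at an unadjusted p under 0.05), with a median of -0.77. Of the 41 named by a member's symbol 38 were called lower and 0 higher (0 higher at an unadjusted p under 0.05 in limma), with a median of -0.77. These genes are far more abundant than the copies, and the shares called were not compared by a test. In the large subunit 40 of 50 and in the small subunit 31 of 33 were lower. Of 19 other mRNAs with an oligopyrimidine tract at their start, such as translation factors, 14 were lower and 0 higher, with 18 lower and 0 higher at an unadjusted p under 0.05. The lists were chosen with earlier results known. Other pseudogenes close to a ribosomal protein sequence had 8 of 164 lower and 1 higher with a median of -0.32, and the remaining pseudogenes 19 of 694 lower and 9 higher with a median of -0.16.

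Rps16-ps2 (chr5:129128077-129128517), the intronless copy of the small subunit gene Rps16, had normalized counts of 117, 127 and 138 in control against 37, 53 and 44 in Taf4asKO. The groups were far apart, and the log2 fold change was -1.50 ± 0.20 (SE, adjusted p = 0.00171, limma). Rps16 itself was 918, 1194 and 927 against 464, 415 and 448, with a log2 fold change of -1.18 ± 0.13. The copy thus stood at 10.6% to 14.9% of its parent's counts in control and 7.97% to 12.8% in Taf4asKO, ranges that overlapped. Rps6-ps4, another copy without a unique window, derives from the gene of the S6 protein that S6 kinases phosphorylate. It was 44, 45 and 36 in control and 9, 23 and 19 in Taf4asKO (log2 fold change -1.33 ± 0.36 SE, adjusted p = 0.0385, limma), beside -1.06 ± 0.10 for Rps6. Its call was lost when any 1 of the 6 libraries was left out, with an adjusted p of 0.0536 to 0.1 in limma.

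Rpl18-ps1 (chr1:60900898-60901422) had 74.3% of its windows in no other transcript. It was measured at 167, 213 and 183 in control and 66, 74 and 73 in Taf4asKO. These groups did not overlap, and the log2 fold change was -1.38 ± 0.17 (SE, adjusted p = 0.00098, limma). Rpl18, the gene of its symbol, changed by -0.63 ± 0.11. The Rpl18 copy Rpl18-ps2 was low, at 13, 11 and 7 against 4, 3 and 4, and was not called (log2 fold change -1.25 ± 0.44, adjusted p = 0.0912, limma).

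Rps24-ps3 on the X chromosome, a copy with an open frame as long as that of Rps24, was 77, 77 and 78 in control and 38, 27 and 32 in Taf4asKO. The control values were almost equal and all above Taf4asKO, with a log2 fold change of -1.25 ± 0.22 (SE, adjusted p = 0.00647, limma), beside -0.87 ± 0.11 for Rps24. Rpl14-ps1 on chromosome 7 was 90, 90 and 70 against 48, 33 and 46 (log2 fold change -0.97 ± 0.23 SE, adjusted p = 0.0235, limma), and Rpl14 changed by -0.94 ± 0.11. The Rpl14-ps1 call was lost without control replicate 1 or without any 1 of the Taf4asKO libraries, with adjusted p of 0.0511 to 0.104 in limma.

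Rpsa-ps10 on chromosome 3 had the lowest counts of the called members, 6, 17 and 11 in control and 1, 2 and 1 in Taf4asKO. Its parent Rpsa encodes a small subunit protein also known as a laminin receptor precursor. The log2 fold change was -2.33 ± 0.53 (SE, adjusted p = 0.0188, limma) against -1.32 ± 0.11 for Rpsa, on a scale that understates changes of low genes. The call was lost without control replicate 3, Taf4asKO replicate 1 or Taf4asKO replicate 3, with adjusted p of 0.0514, 0.0602 and 0.0702 in limma. The 6 copies of Rpsa together summed to 36, 76 and 48 in control and 15, 20 and 15 in Taf4asKO, and these groups did not overlap. The 4 copies of Rpl31 summed to 14, 29 and 26 against 26, 27 and 23, and overlapped. The 2 copies of Rpl5 went the other way without overlap, at 19, 15 and 17 in control and 28, 24 and 28 in Taf4asKO. Summed by the gene of their symbol, 17 of 41 families had all Taf4asKO libraries below all controls, 1 had them all above and 23 overlapped, and no test was made on these sums. Of the 19 families with 2 or more copies, 10 were all below, 1 all above and 8 overlapped. Among all tested genes, taken singly, 16.4% were all below and 16.6% all above.

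**Figure D2:**
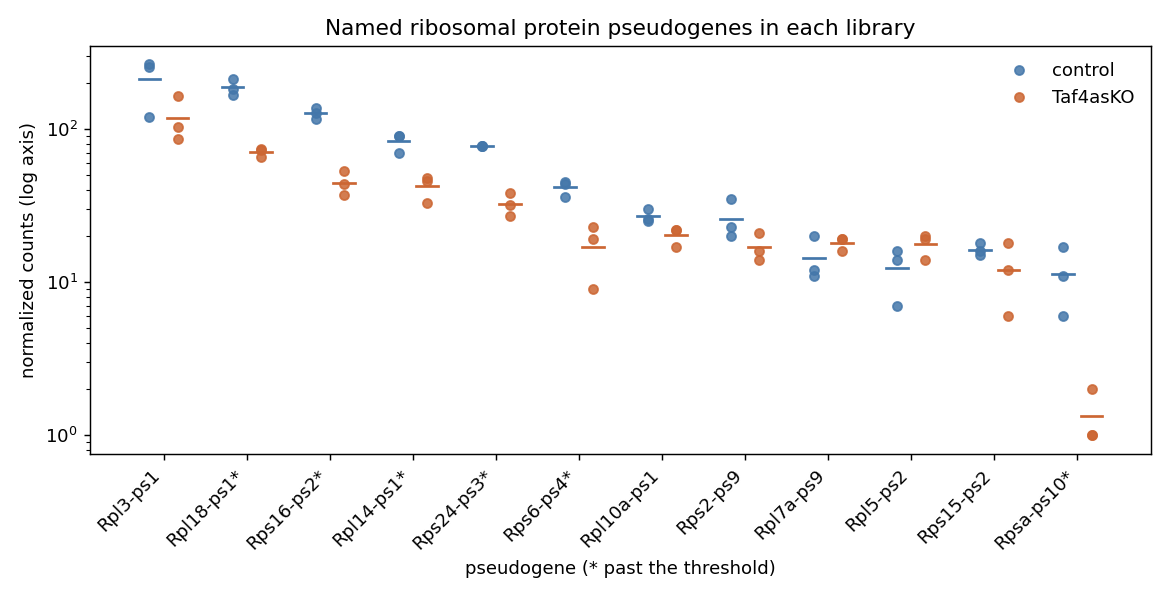
Normalized counts (log axis) of 12 named pseudogenes in each of the 3 control and 3 Taf4asKO libraries, with lines at the group means and asterisks on the 6 members called lower. The points of the called members do not overlap between groups, while those of Rpl3-ps1, the most abundant, do.

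The most abundant member was not called. Rpl3-ps1, a copy of the gene of a protein near the catalytic centre of the large subunit, had 5.1% unique windows and was 119, 253 and 264 in control and 103, 86 and 164 in Taf4asKO. Control replicate 1 lay within the Taf4asKO range, and the log2 fold change was -0.81 ± 0.32 (SE, adjusted p = 0.128, limma). In the fit blocked by replicate the adjusted p of limma was 0.0264 and Rpl3-ps1 passed, and without control replicate 1 the log2 fold change was -1.18 (adjusted p = 0.0175, limma). Rpl3 changed by -0.59 ± 0.11.

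Rpl10a-ps1 and Rps2-ps9 belonged to parents that were themselves not called. Rpl10a-ps1 was 26, 30 and 25 against 22, 17 and 22 (log2 fold change -0.40 ± 0.29, adjusted p = 0.393, limma), groups that did not overlap, and Rpl10a changed by -0.30 ± 0.11 (adjusted p = 0.108). Rps2-ps9 was 20, 23 and 35 against 21, 14 and 16 (-0.56 ± 0.33, adjusted p = 0.298, limma), and Rps2 changed by -0.23 ± 0.11 (adjusted p = 0.194).

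Some copies stood on the other side of 0 from their parents. Rpl5-ps2 was 16, 7 and 14 in control and 20, 14 and 19 in Taf4asKO, with a log2 fold change of 0.54 ± 0.39 (adjusted p = 0.4, limma), whereas Rpl5 changed by -0.77 ± 0.09. Rpl7a-ps9 was 20, 11 and 12 against 19, 19 and 16, with 0.35 ± 0.35 (adjusted p = 0.554, limma), beside -0.66 ± 0.11 for Rpl7a. Neither copy was called. In percent of the parent, however, their groups did not overlap: Rpl5-ps2 was 0.197% to 0.493% of Rpl5 in control and 0.723% to 1.04% in Taf4asKO, and Rpl7a-ps9 0.263% to 0.622% and 0.753% to 0.833% of Rpl7a. Both parents were lower, so a copy with unchanged counts would also rise in percent of its parent. Of 11 named members set beside their parents, 8 overlapped between the groups in this percentage. Rps15-ps2 was 16, 15 and 18 against 12, 6 and 18, with -0.53 ± 0.42 (adjusted p = 0.45, limma), beside -0.70 ± 0.10 for Rps15. In all, 8 tested members had a log2 fold change above 0, up to 0.93 in Rpl5-ps1, and none of them was called or had an unadjusted p under 0.05.

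The closest parents of the 43 tested members all had a log2 fold change below 0, so the sign of a member carries no information on its own parent. In the 9 members with a mean of at least 20, the log2 fold change differed from the parent's by -0.37 to 0.28. The member's log2 fold change was below its parent's in 21 of the 43 pairs, and the median difference was 0.00. Across the 43 pairs the Pearson correlation was 0.42 and the Spearman correlation 0.44, which is a description only, since members with one parent share its value and low members carry wide errors. Of 11 named members set beside their parents, 8 had percentages of the parent that overlapped between the groups, the exceptions being Rpsa-ps10, Rpl5-ps2 and Rpl7a-ps9.

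**Figure D3:**
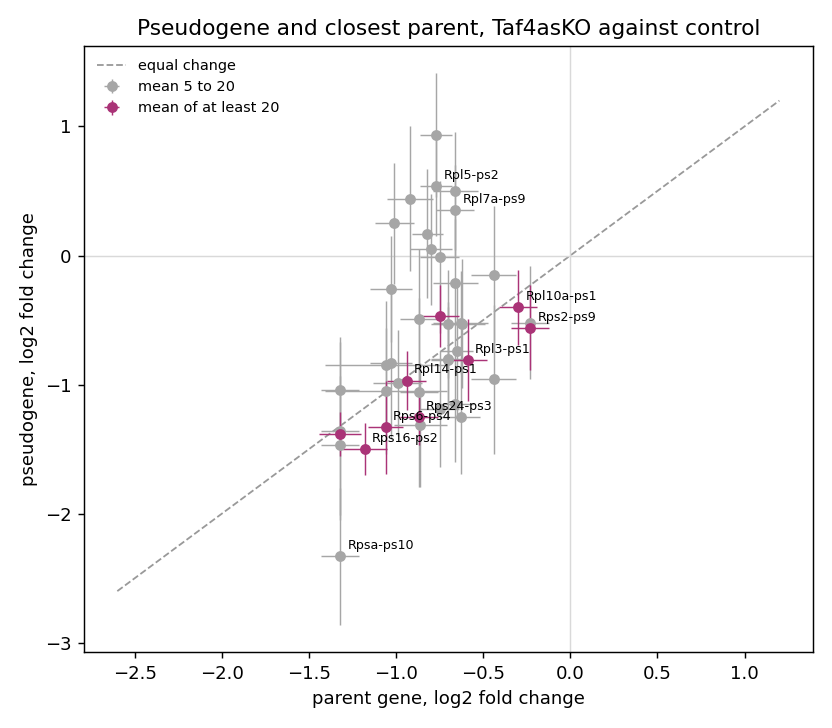
Log2 fold change of each of the 43 tested pseudogenes (vertical) against that of its closest parent gene (horizontal), with standard errors; the dashed line marks equal change. The 9 pseudogenes with a mean of at least 20 lie within -0.37 to 0.28 of that line, and those with a mean of 5 to 20 scatter more widely.

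The change was also set beside the resemblance to the parent. Of the 7 tested members with under 20% unique windows 2 were called lower, with a median log2 fold change of -0.52. With 20% to 60% unique windows 3 of 13 were called (median -0.81), and with 60% or more 1 of 23 (median -0.74). By identity, 2 of 6 tested identical members were called, 4 of 18 at 98% to under 100%, and 0 of 19 under 98% (2 of these lower and 0 higher at an unadjusted p under 0.05 in limma), with medians of -0.46, -0.98 and -0.53. The Spearman correlation with the log2 fold change across the 43 was -0.17 for identity and 0.12 for unique windows. How many reads of a member came from its parent was not tested.

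**Figure D4:**
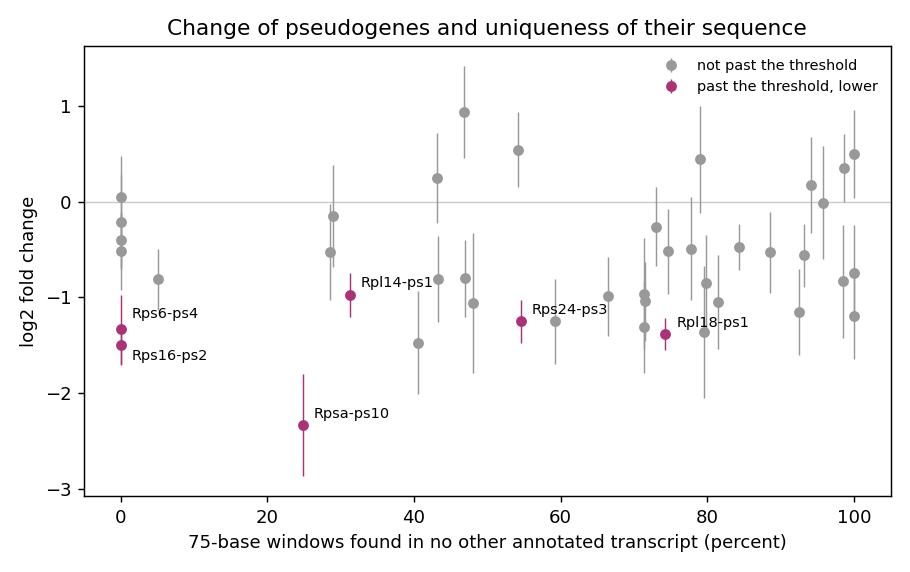
Log2 fold change with standard error of the 43 tested pseudogenes against the percent of their 75-base windows found in no other annotated transcript. The 6 called members run from 0% (Rps16-ps2 and Rps6-ps4) to 74.3% (Rpl18-ps1), and medians lay below 0 in each of the 3 ranges of uniqueness.

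Many copies sit inside another gene. Of the 73 members 33 lay within the span of another gene in the table, 10 on its strand and 23 on the opposite strand, and 0 touched an annotated exon of it. Members inside a gene on its own strand had 0 of 5 called lower (0 at an unadjusted p under 0.05 in limma, median -0.83), those on the opposite strand 3 of 14 (median -0.65), and those outside other genes 3 of 24 (median -0.81). Without the members inside other genes, the log2 ratio of the sums was -0.88, against -0.85 with them.

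Of the 33 genes whose span holds a member, 32 were tested, and 5 were called lower (Cep112, Polr1d, Lca5, Tenm4 and Rnf157) and 1 higher (Mbp). Among all tested genes 6.71% were called lower and 5.93% higher, and these shares were not compared by a test. Cep112 holds Rpl23a-ps14 on its own strand. It was 720, 635 and 693 in control and 449, 398 and 420 in Taf4asKO (log2 fold change -0.69 ± 0.11 SE, adjusted p = 0.00324, limma), beside 16, 6 and 8 against 3, 5 and 4 for Rpl23a-ps14, which was not called (-1.05 ± 0.49, adjusted p = 0.184). The part of Cep112 reads in that value was not tested. The genes around the most abundant copies described above were not called. Adgrd1, an adhesion receptor gene whose span holds Rps16-ps2 on the opposite strand, was 45, 39 and 70 against 72, 56 and 52 (log2 fold change 0.25 ± 0.27, adjusted p = 0.583, limma). Trpm4, a cation channel gene around Rpl14-ps1, was 117, 131 and 112 against 120, 116 and 130 (0.03 ± 0.16, adjusted p = 0.938, limma). Cpeb1 around Rpl7a-ps9 (0.00 ± 0.12) and D17Wsu92e around Rps2-ps9 (0.08 ± 0.10) were not called either. The gene 2600014E21Rik around Rps6-ps4 was 0, 0 and 0 against 1, 1 and 5 and was too low to test.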

How the data were processed

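Libraries were made from 10 ng of total RNA of sorted MuSCs with a stranded total RNA kit. Per the study's methods and the submitters' processing notes, the authors used Trimmomatic 0.39 for trimming of single-end reads and STAR 2.6.0c for alignment to mm10, removed multi-mapping reads, counted reads over exons with featureCounts 1.6.0, leaving out reads that overlap several genes, and normalized with DESeq2 1.14.1. Use of the strand in counting was not given in the sources used here, so reads of a copy and of a gene on the opposite strand may not be told apart. The deposited values are a score: counts that the authors divided by a size factor and rounded, as inferred from the whole values and from median ratios of 1.007 to 1.014 to the geometric mean. They are called normalized counts. The table held 0 value columns without a sample, and the lowest per-gene maximum was 4.

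The members and lists were chosen with earlier results of these data known. Genes with a mean of at least 5 were tested across all 6 libraries with limma 3.58.1 in R 4.3.3 (lmFit, eBayes with trend, two-sided) on log2(value + 1), with Benjamini-Hochberg adjustment over 18562 genes. A count model had been specified for raw counts, and limma was the specified substitute. Sums, shares and medians carry no test. The test was checked on simulated data. Named genes were the 12 members with the highest mean, the 8 largest falls and 8 largest rises among called members (6 and 0 were called), their parents and overlapping genes. Rpl23a and the copies of it, the called genes that hold a member, Col3a1, the Rpl31, Rpl5 and Rpsa families, Rpl18-ps2, Rpl5-ps1 and Rpl17-ps11 fall outside this rule and were picked with their values in view. No pair of libraries held identical values, and nothing in the labels says that libraries of a group came from separate animals, so p-values measure the spread between these libraries. Counting error and depth behind the normalized values are not known from the table.

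Sequences, exons and coding sequences came from GENCODE M21 (mm10), in which all 73 members were found, 68 with the same coordinates. Parents were taken from the symbol and, for alignment, from the closest coding sequence by BLAST 2.17.0. Other pseudogenes counted as close to a ribosomal protein with at least 80% identity over at least 50% of their length. Replicate numbers in the titles are shared by the groups. Deviations of same-numbered libraries correlated at 0.235, 0.126 and 0.15, so the numbers were treated as pairs in a limma fit blocked by replicate. Alternatives covered scaling, offset, filters, limits, variance shrinkage, members used and each library left out. Results that need certain withheld items are not reported here. Figures were drawn with matplotlib 3.10.9.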

Additional observations from a re-analysis of the deposited data

How the results depend on the processing

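The direction of the summed pseudogene level and of the ribosomal protein gene sum, and the absence of called rises in either group, held under every alternative run. With each library left out in turn, the members called lower numbered 3 to 5, the median log2 fold change of tested members ran from -0.78 to -0.61, and the log2 ratio of the pseudogene sum from -0.92 to -0.80. The count of members called lower was 3 at an adjusted p limit of 0.01 and 3 among members outside other genes. A fold limit of 2 left 15 ribosomal protein genes called lower. The median of tested members was -0.53 with no filter on the mean and -0.97 with a mean of at least 20. Without the members with a mean of at least 20, the log2 ratio of the pseudogene sum was -0.55 and that of its percent of the ribosomal protein gene sum 0.30. The cause of these shifts was not tested, apart from the fewer genes that the limits and filters leave. With the replicate block 7 members were called lower, Rpl3-ps1 being the addition, and 74 ribosomal protein genes. It changed no other call among the named genes. Genes near 0 changed sign: the log2 fold change of Cpeb1 ran from -0.070 to 0.120 and that of Trpm4 from -0.023 to 0.089 with each library left out in turn, and Trpm4 was at -0.008 with upper-quartile scaling. Normalized values without reads limit what can be said of members with a few counts.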
